A study of Homo sapiens with 2 samples.

Results

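The genes described here are 46 heat shock, chaperonin and ER chaperone genes, chosen by name from the rows of a deposited gene table, and all 46 were found among its 46427 rows. They fall into 7 subgroups: 9 cytosolic HSP70, HSP90 and small heat shock protein genes, 4 cytosolic J-domain genes, 5 cytosolic co-chaperone genes, 2 heat shock factor genes, the 8 genes of the CCT chaperonin, 4 mitochondrial chaperone genes, and 13 ER chaperone and folding genes together with XBP1. The study asked how exposure to PPMX-T003, an antibody against transferrin receptor 1, alters the transcriptome of NK92, an established line of malignant natural killer (NK) cells grown in medium with human serum. The exposed dish was kept for 6 h with PPMX-T003 at 10 µg/mL and the control dish for as long without it, both from a culture already 18 h old, and polyadenylated RNA of each gave 1 library. The deposited columns carry the names 0 h and 6 h, but per the methods both dishes were cultured for the same 6 h, so the first is called control and the second exposed. No replicate checks any difference between them, and no p-value is given.

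Chaperones of the HSP70 family bind exposed hydrophobic stretches of unfolded proteins in a cycle driven by ATP, started by J-domain partners and reset by nucleotide exchange factors such as the BAG proteins, and HSP90 acts later on a narrower set of clients. CCT is a double-ring chamber that folds actin, tubulin and other cytosolic proteins, and HSPD1 with its lid HSPE1 is its counterpart in mitochondria. The cytosolic genes are induced by heat shock factor 1 through heat shock elements, and the ER genes by ATF6 and XBP1, which act in the unfolded protein response through ER stress elements.

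The control library held 46766416 counts and the exposed library 43178462, with at least 1 count for 17690 and 17650 genes. Markers of the cell line were in place in both. All 12 NK cell marker genes were detected, with a summed TPM (a gene's share of all transcripts after division by transcript length, in parts per 1000000) of 7847 in control and 8424 in the exposed library. NKG7 was the most abundant of them, at 3215 and 3445. Of 7 T cell markers, CD3D, CD3G, CD8A, CD8B and CD5 had 0 counts in both libraries and CD4 had 4 and 0. TRAC alone was above this, with 1501 and 1312 counts. MS4A1 and CD22, made in B cells, MPO of the myeloid list, all 4 erythroid markers and 5 of 6 stromal and epithelial markers had 0 counts in both. KRT8, the sixth, had 2 and 0. ITGAM, a myeloid marker that is also an NK cell gene, had at most 213 counts in a library. PAX5, a B cell factor, gave 169 and 78 counts, CD79A 14 and 12, CSF1R 22 and 9, CD14 0 and 7, and LYZ 2 and 0.

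In these cells the chaperone genes were a highly expressed group whose levels differed little between control and exposed cells. Together they made up 2.75% of the summed TPM in control and 2.76% in the exposed library. Differences were measured as log2 fold changes (log2FC) of exposed over control from TMM-scaled counts (trimmed mean of M-values) as log2 CPM with a prior count of 2. CPM is the share of a library's counts that fall on a gene, in parts per 1000000. Each has a 95% Clopper-Pearson interval, which covers counting error only. A gene was tested with at least 20 counts over both libraries, which 45 of the 46 members reached. HSPB1 did not. A change was called from 1.2-fold, equal to 0.26 on the log2 scale.

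BAG3 was the 1 member that passed this threshold, and it rose. No member was at least 1.2-fold lower. Among all 13665 genes tested, 12.2% passed 1.2-fold upwards and 12.4% downwards, against 2.22% and 0% of the 45 members. BAG3 lies far lower in counts than most members, at a depth where more genes pass. Of the 1326 genes with at least 100 and under 300 counts, 25.4% were at least 1.2-fold higher, 3.54% with the whole interval, as BAG3 was, and 1.66% had a fold change as high as that of BAG3 or higher. Most members are far more abundant than the typical gene, and the share past 1.2-fold falls with abundance. Among the 8359 genes with at least 1000 counts it was 2.79% higher and 5.11% lower, against 0 of the 42 members with as many counts in either direction. The median log2 fold change was 0.018 over the 45 members and −0.0020 over all genes tested. For genes with at least 1000 counts the standard deviation of the log2 fold changes was 0.10 over the members and 0.16 over all genes. Beyond that minimum, all genes were not matched to the members in depth.

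Deep coverage makes small differences measurable beyond counting error. The interval lay above 0 in 21 of the 45 members and below 0 in 11, where all genes tested gave 21.8% above and 23.9% below. With at least 1000 counts it was 19 and 11 of 42 members, against 27.8% above and 32.1% below over all such genes. Intervals lie off 0 more often at higher counts, and most of these members had counts far above 1000. The background was not matched to them in depth beyond that minimum. The intervals also leave out differences between dishes, which cannot be estimated here. For many members direction also depended on scaling and on whether a fit on GC content and transcript length was subtracted. Of the 45, 14 were higher in the exposed library under the main setting and under 8 other ways of computing the fold change: HSPA1B, HSPA8, BAG1, BAG3, HSPE1, DNAJA3, HSPA5, HSP90B1, HYOU1, DNAJB11, SDF2L1, CALR, PDIA3 and PDIA4. DNAJB6, HSPD1, HSPA13, DNAJB9 and XBP1 were lower under these 9. The other 26 took both signs or, for HSPA1A, equal TPM in both libraries, so their differences are given as values without a direction. Among the 8 ways, the other scalings and prior counts moved the median of all genes tested by at most 0.012. Very small values aside, only the TPM scale and the GC and length fits could therefore turn a sign. Fits on a single property were not among the 9 settings, and they turned the signs of HSPE1 and HSPD1.

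**Figure D1:**
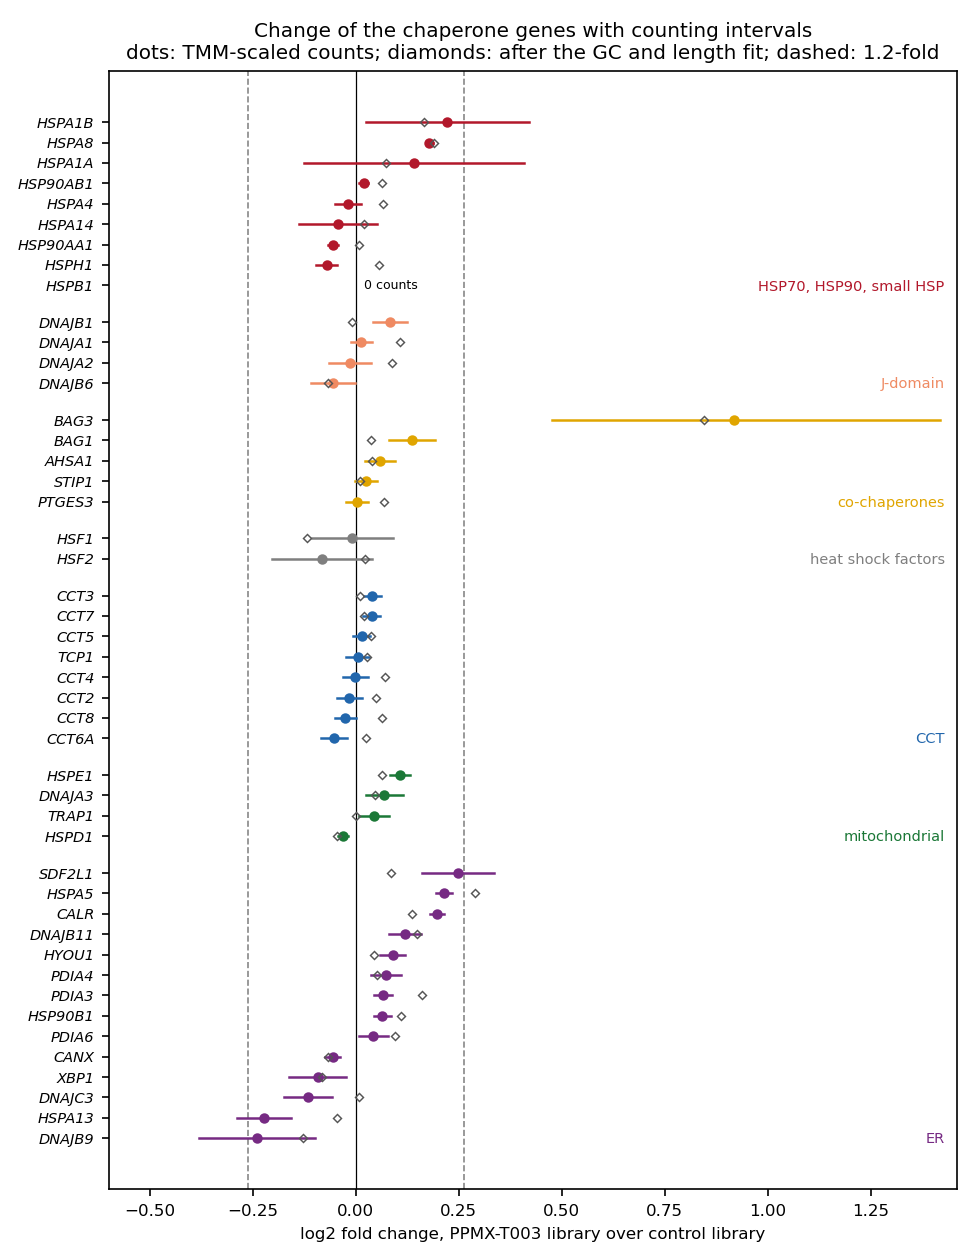
Log2 fold change of each member (horizontal axis, PPMX-T003 library over control library, 1 library each), by subgroup, with 95% intervals for counting error. Dots are TMM-scaled counts, diamonds are values after a fit on GC content and length was subtracted, and dashed lines mark 1.2-fold. BAG3 lies at 0.92, the 8 CCT genes between −0.053 and 0.040, and the ER genes between −0.24 and 0.25.

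GC content and transcript length both moved with the fold changes. Over genes with at least 200 counts, sorted by the GC content of their transcripts into 10 bands of equal size, the median log2 fold change went from −0.13 in the lowest band to 0.12 in the highest. Over 10 bands of length it went from 0.031 for the shortest to −0.12 for the longest with the median length of a gene's transcripts, and from 0.10 to −0.15 with the longest transcript. Taken alone in a fit, GC content turned the sign of 11 of the 45 members and length that of 8, with either choice of transcript, so the turned signs cannot be put down to 1 of them. A fit on log2 counts, with a range of only 0.053 over its band medians, also turned 5, HSPD1 among them. The range over the GC bands is as wide as most of the differences among the members. A fit on both GC content and length was therefore subtracted as an alternative, and its value is given beside many of the genes below. The members' median was 0.047 after it. HSPA5, at a GC content of 46.03%, stood above the genes of its band, whose median was −0.044. SDF2L1, at 65.5%, was in the band with a median of 0.12. HSPA13, at 34.9%, was in the band with a median of −0.13. The NK cell markers, a group of high GC content, had a median log2 fold change of 0.13 before and 0.052 after the fit.

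The members' annotated promoters were searched for exact matches to set forms of the sequence elements named above. RefSeq windows on GRCh38.p14, from 250 bases before to 50 bases after a start site, were at hand for 42 members. HSPA14, HSF1, CCT6A and PDIA3 had none. The heat shock element was searched as GAANNTTCNNGAA and TTCNNGAANNTTC, which are each other's reverse complement and can overlap, and the ER stress element as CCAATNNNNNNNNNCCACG, on both strands. The heat shock element stood in 172 of all 35116 windows (0.49%), and the ER stress element in 27 (0.0769%). Counted by gene, these were 166 of 27305 genes (0.608%) and 25 (0.0916%). Of the 42 members, 6 held the heat shock element: HSP90AA1, HSP90AB1, HSPA8, DNAJA1, DNAJB6 and HSPD1. Another 6 held the ER stress element, and all of them were ER members: HSPA5, HSP90B1, CALR, CANX, PDIA6 and XBP1. A match describes the letters of a window, and no binding was measured. Only exact matches were counted, so a gene without a match can still hold a variant of the element. HSPA1A, HSPA1B and DNAJB1 have windows with a site that differs from the heat shock forms by a single base.

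In the cytosol, the constitutive chaperones were among the most abundant transcripts of the cell while HSPA1A, HSPA1B and HSPB1 were at the bottom of their subgroup. HSPA8, the constitutive HSP70 (NCBI Gene ID 3312), had the highest TPM of all members, 4691 in control and 5107 in the exposed library, and ranked 9 among all genes in control. It gave 220699 and 230174 counts (4716 and 5335 CPM), a log2 fold change of 0.18 (interval 0.17 to 0.19), and 0.19 after the GC and length fit. This was the largest difference among members with a TPM over 1000 other than CALR. The constitutive HSP90, HSP90AB1, had a TPM of 3108 in control and 3033 in the exposed library. Its 165587 and 154630 counts (3538 and 3584 CPM) gave a log2FC of 0.018 (interval 0.0085 to 0.029). The inducible isoform, HSP90AA1, had a TPM of 1887 in control and 1750 in the exposed library, with 127062 and 112733 counts (2715 and 2613 CPM) and a log2FC of −0.055 (interval −0.067 to −0.044). The sign of both HSP90 values turned under another setting. HSP90AA1 was at 0.0071 after the fit, and HSP90AB1 at 0.062 after the fit and −0.035 on the TPM scale. The ratio of these isoforms does not need a scaling between libraries. By TPM, that of HSP90AB1 to HSP90AA1 was 1.65 in control and 1.73 in the exposed library, and the count ratio differed by 0.074 (interval 0.059 to 0.089) on the log2 scale, or 0.055 after the fit and 0.031 with the longest transcript in it. HSPA8 against HSP90AB1 likewise went from 1.51 to 1.68 by TPM, with a log2 difference in count ratio of 0.16 (interval 0.15 to 0.17), or 0.13 and 0.16 after these fits.

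The promoter windows of HSPA8 and HSP90AB1 are shown because both genes are at the top of the levels and each holds 2 heat shock elements, in capitals. The HSPA8 window (chr11:123062087-123062386, minus strand) has them centred 224 and 48 bases before the start site. This HSP90AB1 window (chr6:44247693-44247992, plus strand) has them 158 and 106 bases before its start site, and the gene's other annotated windows held no match.
HSPA8: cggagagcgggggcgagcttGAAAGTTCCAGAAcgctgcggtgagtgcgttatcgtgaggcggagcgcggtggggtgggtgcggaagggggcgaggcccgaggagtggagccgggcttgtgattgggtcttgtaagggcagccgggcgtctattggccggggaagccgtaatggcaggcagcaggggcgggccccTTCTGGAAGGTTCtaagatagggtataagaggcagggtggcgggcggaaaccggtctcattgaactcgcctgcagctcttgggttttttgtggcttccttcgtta
HSP90AB1: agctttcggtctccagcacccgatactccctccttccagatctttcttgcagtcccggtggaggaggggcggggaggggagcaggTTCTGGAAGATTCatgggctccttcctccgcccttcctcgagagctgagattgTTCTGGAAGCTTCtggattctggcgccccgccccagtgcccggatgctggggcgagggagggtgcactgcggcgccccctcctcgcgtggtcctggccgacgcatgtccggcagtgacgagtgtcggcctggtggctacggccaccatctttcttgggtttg
The same element in HSP90AA1 is TTCCGGAAGGTTC, 82 bases before the start site of its window. HSP90AA1, like HSP90AB1, also had an annotated window without a match. With the element in at least 1 window of all 3 genes, HSPA8 was higher in the exposed library at 0.18. HSP90AB1 was at 0.018 and HSP90AA1 at −0.055.

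HSPA1A and HSPA1B, the stress-inducible HSP70 genes, were low in level. HSPA1A had a TPM of 5 in both libraries, from 233 and 237 counts (4.98 and 5.49 CPM), and a log2 fold change of 0.14 (interval −0.13 to 0.41). HSPA1B had a TPM of 8 and 9, from 408 and 439 counts (8.72 and 10.2 CPM), and a log2FC of 0.22 (interval 0.025 to 0.42). After the GC and length fit HSPA1A was at 0.073 and HSPA1B at 0.17. Their transcripts share most of their sequence: 69.9% of the 100-base stretches of HSPA1A are also in HSPA1B, so the division of reads between them is uncertain. Summed, they gave 641 and 676 counts and a log2FC of 0.19 (interval 0.036 to 0.35). The promoters of the pair are nearly copies too. In the alignment 277 bases are identical, 22 are mismatched and 2 are gaps, and capitals mark the bases that differ. The windows are chr6:31815293-31815592 and chr6:31827488-31827787, both on the plus strand, and neither holds the heat shock element in the form searched.
HSPA1A: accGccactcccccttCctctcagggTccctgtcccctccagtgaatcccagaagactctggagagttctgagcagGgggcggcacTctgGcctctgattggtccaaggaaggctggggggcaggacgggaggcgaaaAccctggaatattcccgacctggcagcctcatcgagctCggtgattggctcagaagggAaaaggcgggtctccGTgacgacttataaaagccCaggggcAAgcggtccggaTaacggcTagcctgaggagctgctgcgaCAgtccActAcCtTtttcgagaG
HSPA1B: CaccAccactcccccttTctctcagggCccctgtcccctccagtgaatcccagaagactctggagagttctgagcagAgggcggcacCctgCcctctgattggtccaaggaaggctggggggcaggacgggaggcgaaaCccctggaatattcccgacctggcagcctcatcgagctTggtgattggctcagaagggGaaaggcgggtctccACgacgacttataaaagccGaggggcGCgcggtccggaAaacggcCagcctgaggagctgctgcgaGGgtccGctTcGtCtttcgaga
HSPB1, the small heat shock protein HSP27, had 0 counts in both libraries. Taking 3 counts as the floor, this allows up to 0.0641 CPM in control and 0.0695 CPM in the exposed library.

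The other cytosolic HSP70 relatives differed by less. HSPH1, a heat-inducible exchange factor of the HSP110 class, had a TPM of 256 in control and 235 in the exposed library, from 27115 and 23803 counts (579 and 552 CPM). Its log2 fold change of −0.071 (interval −0.096 to −0.046) was the lowest of its subgroup, and it turned to 0.056 after the fit at a GC content of 40.0%. HSPA4, of the same class, had 16175 and 14718 counts and a log2FC of −0.019 (interval −0.051 to 0.013), or 0.067 after the fit. HSPA14, which acts at the ribosome, had 1892 and 1692 counts and a log2FC of −0.044 (interval −0.14 to 0.051), or 0.020 after the fit. Of the 8 tested genes of the subgroup, 4 had a value above 0 and 4 below, with a median of −0.00022. After the fit all 8 were above 0, with a median of 0.064, and with the longest transcript in the fit 7 were.

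Among the J-domain genes, which deliver clients to HSP70, DNAJA1 had the highest TPM at 509 in control and 495 in the exposed library, and its 24581 and 22874 counts (525 and 530 CPM) gave a log2FC of 0.013 (interval −0.013 to 0.039). DNAJA2 had the lowest, 103 in control and 99 in the exposed library, from 6485 and 5922 counts (139 and 137 CPM), and gave a log2FC of −0.014 (interval −0.065 to 0.037). DNAJB1, the heat-inducible HSP40, had a TPM of 211 in control and 216 in the exposed library. It gave 9887 and 9653 counts (211 and 224 CPM), with a log2FC of 0.083 (interval 0.042 to 0.12) before and −0.0092 after the fit. DNAJB6, known for keeping aggregating proteins soluble, had 6170 and 5475 counts (132 and 127 CPM) and a TPM of 138 in control and 129 in the exposed library. It was the lowest of the 4 at a log2FC of −0.055 (interval −0.11 to −0.0024), and it was below 0 under each of the 9 settings. The 4 genes therefore lay between −0.055 and 0.083, and after the fit DNAJB1 was below DNAJA1 at 0.11 and DNAJA2 at 0.089.

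BAG3 (NCBI Gene ID 9531), a co-chaperone that links HSP70 to autophagy and a known heat shock factor 1 target, gave 61 counts in control and 108 in the exposed library, or 1.30 and 2.50 CPM. Its log2 fold change was 0.92 (interval 0.48 to 1.42), so that the whole interval lay past 1.2-fold. It was at 0.85 after the GC and length fit, which was made on genes with at least 200 counts, more than BAG3 had. On the TPM scale it was at 0.58, a value set by rounding to whole numbers. The level was low, at a TPM of 1 and 2, and the gene held no heat shock element in the form searched. In bulk RNA, a higher level in all cells and in a fraction of them cannot be told apart. Its relative BAG1 had 5197 and 5265 counts and a log2FC of 0.14 (interval 0.080 to 0.19). This was 0.037 after the fit and 0.16 with the longest transcript in it. PTGES3, the HSP90 co-chaperone p23, was the most abundant of the 5 with a TPM of 539 in control and 522 in the exposed library. It gave 22941 and 21188 counts (490 and 491 CPM) and the lowest fold change of the subgroup, 0.0026 (interval −0.024 to 0.030), or 0.069 after the fit. AHSA1, which activates the HSP90 ATPase, had 12337 and 11842 counts and a log2FC of 0.058 (interval 0.022 to 0.095). STIP1, which hands clients from HSP70 to HSP90, had 21958 and 20585 counts and a log2FC of 0.024 (interval −0.0034 to 0.052).

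The heat shock factors themselves were low among the members, and both intervals held 0. HSF1, the main heat-responsive factor, had a TPM of 38 in control and 37 in the exposed library. It gave 1727 and 1583 counts (36.9 and 36.7 CPM) and a log2FC of −0.0083 (interval −0.11 to 0.091), although genes of its GC content had a median of 0.12, and it was at −0.12 after the fit. HSF2 had a TPM of 22 in control and 20 in the exposed library, with 1195 and 1041 counts (25.5 and 24.1 CPM) and a log2FC of −0.082 (interval −0.20 to 0.039), or 0.022 after the fit.

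The 8 subunits of CCT, which occur once per ring in the assembled chamber, stayed together. Their log2 fold changes lay between −0.053 and 0.040, and their median was 0.0014 before and 0.032 after the fit. Levels spanned more than changes did, from a TPM of 317 for CCT6A to 947 for CCT7 in control, a ratio of 2.99, and 3.19 in the exposed library. The count ratio of these 2 differed by 0.091 (interval 0.053 to 0.13) on the log2 scale, but by −0.0060 after the fit and 0.014 with the longest transcript in it. CCT7 had a TPM of 947 and 937, with 36481 and 34530 counts (780 and 800 CPM) and a log2FC of 0.038 (interval 0.017 to 0.059). CCT3 had a TPM of 883 and 873, with 36489 and 34587 counts (780 and 802 CPM) and a log2FC of 0.040 (interval 0.019 to 0.061). CCT7 and CCT3 had the highest TPM and were the ones with an interval above 0, but after the fit they were the lowest of the 8 at 0.019 and 0.010. CCT8 had a TPM of 666 and 627, with 26042 and 23588 counts (556 and 547 CPM) and a log2FC of −0.026 (interval −0.051 to just under 0). CCT5 had a TPM of 588 and 572, with 40435 and 37638 counts (864 and 872 CPM) and a log2FC of 0.014 (interval −0.0065 to 0.034). CCT2 had a TPM of 470 and 448, with 18774 and 17121 counts (401 and 397 CPM) and a log2FC of −0.016 (interval −0.046 to 0.014). These middle subunits differed by 0.026 or less in either direction. TCP1 had a TPM of 465 and 449, with 22812 and 21089 counts (487 and 489 CPM) and a log2FC of 0.0040 (interval −0.023 to 0.031). CCT4 had a TPM of 378 and 363, with 18651 and 17181 counts (399 and 398 CPM) and a log2FC of −0.0012 (interval −0.031 to 0.029). CCT6A had a TPM of 317 and 294, with 17030 and 15135 counts (364 and 351 CPM) and a log2FC of −0.053 (interval −0.085 to −0.021). CCT6A and CCT8 had intervals below 0, and 4 subunits had intervals that held 0. With the counts of its pseudogene row added, that of CCT8 went from −0.051 to 0.0001 and held 0. After the GC and length fit all 8 values were above 0, between 0.010 and 0.071, and on the TPM scale all 8 were below 0, so no direction is given for the complex. The order of the subunits by TPM was kept except that TCP1, at 465 and 449, and CCT2, at 470 and 448, changed places.

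The folding cofactors that deliver actin and tubulin to CCT or act after it spanned a wider range than CCT did. Of 17 prefoldin, phosducin-like and tubulin cofactor genes, none passed 1.2-fold in either direction. Over all genes tested, 12.2% passed upwards and 12.4% downwards, or 2.79% and 5.11% with at least 1000 counts. In the list of 17, 11 had a value above 0, and the median was 0.048. PDCL, a phosducin-like cofactor, was highest at a log2FC of 0.24 (interval 0.11 to 0.37), from 953 and 1038 counts. It was at 0.23 after the fit, short of 1.2-fold, and past it at 0.31 when the longest transcript was used in the fit. VBP1, a prefoldin subunit, was lowest at a log2FC of −0.13 (interval −0.19 to −0.075), from 5069 and 4259 counts, and was at −0.012 after the fit.

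In mitochondria, the chamber HSPD1 and its lid HSPE1 had nearly equal deposited TPM in control, and their ratio was higher in the exposed library. By counts per kilobase HSPE1 was the lower of the 2 in control, at 0.293 of HSPD1 with median transcript lengths and 0.649 with longest. HSPE1 had a TPM of 2309 in control and 2394 in the exposed library, from 26805 and 26606 counts (573 and 617 CPM), and a log2 fold change of 0.11 (interval 0.082 to 0.13). HSPD1 had a TPM of 2281 in control and 2148 in the exposed library, from 106721 and 96233 counts (2280 and 2230 CPM), and a log2FC of −0.032 (interval −0.045 to −0.019). They were at 0.062 and −0.046 after the fit, but close together at 0.015 and −0.0081 with the longest transcript in it, and fits on 1 property of the longest transcript turned the sign of HSPE1 (length) and of HSPD1 (GC content). The TPM ratio of HSPE1 to HSPD1 was 1.01 in control and 1.11 in the exposed library, and the count ratio differed by 0.14 (interval 0.11 to 0.17) on the log2 scale. HSPE1 shares 165 bases of exon with the readthrough gene HSPE1-MOB4, which gave 883 and 1007 counts and a log2FC of 0.31 (interval 0.18 to 0.44). With the 7 detected pseudogene and readthrough rows named for it added, HSPE1 was at a log2FC of 0.11 (interval 0.090 to 0.14).

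The HSPE1 and HSPD1 genes lie head to head, and 204 bases of the HSPE1 window (chr2:197500129-197500428, plus strand) are also covered by a HSPD1 window on the other strand (chr2:197500225-197500524). Heat shock elements stand in the other HSPD1 window (chr2:197499791-197500090, minus strand), where 2 overlapping matches fill the capitals, centred 238 and 234 bases before its start site.
HSPD1: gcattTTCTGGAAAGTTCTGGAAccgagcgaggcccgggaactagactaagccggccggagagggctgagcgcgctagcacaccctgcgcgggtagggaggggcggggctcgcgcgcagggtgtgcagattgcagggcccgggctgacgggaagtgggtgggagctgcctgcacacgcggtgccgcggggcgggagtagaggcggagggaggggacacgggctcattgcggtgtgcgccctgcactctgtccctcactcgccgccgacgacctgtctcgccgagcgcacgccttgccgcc
TRAP1, the mitochondrial HSP90, had 13038 and 12395 counts and a log2FC of 0.044 (interval 0.0087 to 0.080), which went to −0.00054 after the fit. DNAJA3, a mitochondrial J-domain protein and the least abundant of the 4, had a TPM of 148 in control and 150 in the exposed library, from 8136 and 7865 counts (174 and 182 CPM), and a log2FC of 0.068 (interval 0.023 to 0.11). HSPA9, the mitochondrial HSP70 and not a member, had 45333 and 40448 counts and a log2FC of −0.047 (interval −0.067 to −0.028). Of 17 tested genes of mitochondrial folding, import and proteolysis, 1 passed 1.2-fold upwards and none downwards. Over all genes tested, 12.2% passed upwards and 12.4% downwards, or 2.79% and 5.11% with at least 1000 counts. The 1 gene was SPG7, a protease subunit, at a log2FC of 0.27 (interval 0.16 to 0.38) from 1253 and 1393 counts. It was at 0.22 after the fit, short of 1.2-fold. YME1L1, also a protease, was lowest at a log2FC of −0.11 (interval −0.18 to −0.049), or −0.016 after the fit. The median of the list was 0.059.

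With BAG3 set aside, the ER genes had the widest range of fold changes among the subgroups, from −0.24 to 0.25. Among all genes with at least 1000 counts, 2.79% were at least 1.2-fold higher and 5.11% lower. The interval lay above 0 in 27.8% of such genes and below 0 in 32.1%. These genes were not matched in depth to the ER genes. None of the 14 passed 1.2-fold, and none had an interval that held 0: 9 lay above and 5 below. Their median was 0.065 before and 0.067 after the fit and 0.012 on the TPM scale, and their summed counts gave a log2FC of 0.087 (interval 0.080 to 0.094). HSPA5 and CALR made up most of this, and the other 12 summed to a log2FC of 0.026 (interval 0.016 to 0.035). The most abundant soluble chaperones of the lumen were on the higher side. HSPA5 (NCBI Gene ID 3309), the ER HSP70 known as BiP, had a TPM of 495 in control and 552 in the exposed library. It gave 40421 and 43219 counts (864 and 1002 CPM) and a log2 fold change of 0.21 (interval 0.19 to 0.23). After the GC and length fit it was at 0.29, past 1.2-fold, and at 0.26, short of it, when the longest transcript was used in the fit. HSPA5 is thus the 1 member besides BAG3 that crossed the threshold upwards in any setting.

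CALR, a calcium-binding lectin chaperone, was the most abundant ER member at a TPM of 1468 in control and 1621 in the exposed library. It gave 58175 and 61464 counts (1243 and 1425 CPM), with a log2FC of 0.20 (interval 0.18 to 0.21) before and 0.14 after the fit. Its membrane-bound relative CANX had 53414 and 47348 counts and a log2FC of −0.057 (interval −0.075 to −0.039), with −0.067 after the fit and 0.028 after the fit on the longest transcripts. The TPM ratio of CALR to CANX was 2.83 in control and 3.39 in the exposed library, and the count ratio differed by 0.25 (interval 0.23 to 0.28) on the log2 scale, or 0.20 after the fit and 0.099 with the longest transcript in it. SDF2L1, a partner of ER HSP70 and J-domain proteins, had the highest fold change of the 14. Its TPM was 119 in control and 136 in the exposed library, with 2052 and 2247 counts (43.8 and 52.1 CPM) and a log2FC of 0.25 (interval 0.16 to 0.34), and 0.084 after the fit. DNAJB11, an HSPA5 partner, had 10638 and 10645 counts and a log2FC of 0.12 (interval 0.079 to 0.16), or 0.15 after the fit. HYOU1, the exchange factor of HSPA5, had a TPM of 195 in control and 199 in the exposed library, from 18272 and 17922 counts (390 and 415 CPM), and a log2FC of 0.089 (interval 0.060 to 0.12), or 0.043 after the fit. HSP90B1, the ER HSP90 also called GRP94, had a TPM of 674 in control and 679 in the exposed library. Its 39103 and 37700 counts (836 and 874 CPM) gave a log2FC of 0.065 (interval 0.044 to 0.085), and the HSP90B1 to HSPA5 count ratio differed by −0.15 (interval −0.18 to −0.12) on that scale. The disulfide isomerases PDIA3, PDIA4 and PDIA6 were at 0.066, 0.073 and 0.043, with intervals above 0. After the fit they were at 0.16, 0.050 and 0.096, and PDIA6 turned to −0.010 on the TPM scale.

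Of the 5 ER members with a value below 0 under the main setting, all but CANX were of low abundance in the subgroup, and CANX and DNAJC3 took both signs over the settings. DNAJB9, a J-domain protein that restrains the stress sensor IRE1, had both the lowest TPM, 19 in control and 15 in the exposed library, and the lowest fold change. Its 943 and 736 counts (20.1 and 17.1 CPM) gave a log2FC of −0.24 (interval −0.38 to −0.10), −0.13 after the fit, and −0.32 on the TPM scale, past 1.2-fold. HSPA13, an HSP70 relative of the ER, had 4285 and 3386 counts and a log2FC of −0.22 (interval −0.29 to −0.16), which was −0.045 after the fit and −0.27 on the TPM scale, past 1.2-fold. The TPM are whole numbers, and on that scale the median of genes with at least 1000 counts also moved by −0.045. DNAJC3, a J-domain protein also called p58IPK, had 5224 and 4442 counts and a log2FC of −0.12 (interval −0.17 to −0.059), and was at 0.0082 after the fit. XBP1, the transcription factor among the members, had a TPM of 95 in control and 86 in the exposed library. It gave 3595 and 3108 counts (76.8 and 72.0 CPM) and a log2FC of −0.093 (interval −0.16 to −0.023), or −0.082 after the fit, and its counts hold both the spliced and the unspliced form. HSPA5 can be set against the lower members within a library. The TPM ratio of HSPA5 to DNAJB9 was 26.1 in control and 36.8 in the exposed library, a log2 difference in count ratio of 0.45 (interval 0.31 to 0.59). For HSPA5 and XBP1 that difference was 0.31 (interval 0.23 to 0.38).

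Promoter windows of 4 ER members are shown because they hold the rare ER stress element, in capitals, and lie on both sides of 0. HSPA5 (chr9:125241294-125241593, minus strand) has it 56 bases before the start site, XBP1 (chr22:28800520-28800819, minus strand) 42 bases, and CALR (chr19:12938359-12938658, plus strand) 216 bases on the opposite strand. HSP90B1 (chr12:103930160-103930459, plus strand) has 2, at 184 and, on the opposite strand, 80 bases before it. Another annotated window of XBP1 held no match.
HSPA5: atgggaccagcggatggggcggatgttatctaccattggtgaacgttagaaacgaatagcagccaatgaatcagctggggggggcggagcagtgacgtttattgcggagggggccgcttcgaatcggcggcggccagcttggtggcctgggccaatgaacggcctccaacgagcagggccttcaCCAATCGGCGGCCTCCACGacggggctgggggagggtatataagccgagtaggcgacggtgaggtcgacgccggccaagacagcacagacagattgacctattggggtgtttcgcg
HSP90B1: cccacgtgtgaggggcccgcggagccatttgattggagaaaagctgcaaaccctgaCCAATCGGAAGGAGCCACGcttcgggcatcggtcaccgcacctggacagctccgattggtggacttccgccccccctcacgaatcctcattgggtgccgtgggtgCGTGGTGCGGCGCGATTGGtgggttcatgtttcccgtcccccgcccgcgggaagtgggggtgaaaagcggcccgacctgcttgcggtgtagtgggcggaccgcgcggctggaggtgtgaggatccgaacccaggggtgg
CALR: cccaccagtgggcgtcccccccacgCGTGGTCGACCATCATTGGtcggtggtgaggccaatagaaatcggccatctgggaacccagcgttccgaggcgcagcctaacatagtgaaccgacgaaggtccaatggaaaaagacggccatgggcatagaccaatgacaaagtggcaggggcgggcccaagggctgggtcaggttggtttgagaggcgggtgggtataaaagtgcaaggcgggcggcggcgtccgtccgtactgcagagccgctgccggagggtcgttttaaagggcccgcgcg
XBP1: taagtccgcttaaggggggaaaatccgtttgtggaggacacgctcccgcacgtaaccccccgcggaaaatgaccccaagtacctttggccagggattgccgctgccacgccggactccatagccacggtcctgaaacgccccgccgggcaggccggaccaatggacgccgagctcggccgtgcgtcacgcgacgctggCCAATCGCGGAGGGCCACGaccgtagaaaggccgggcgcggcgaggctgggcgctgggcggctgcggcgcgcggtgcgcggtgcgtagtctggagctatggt
The matches in PDIA6 and CANX read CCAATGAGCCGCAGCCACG and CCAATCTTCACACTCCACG. PDIA6 and CANX each also had an annotated window without a match. The 6 genes with the element had log2 fold changes of 0.21 for HSPA5, 0.20 for CALR, 0.065 for HSP90B1, 0.043 for PDIA6, −0.057 for CANX and −0.093 for XBP1. The ER members SDF2L1 and DNAJB9, at the ends of the range, had no match in their windows.

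The wider ER list had 46 further genes of folding, ER-associated degradation and the unfolded protein response, of which 45 were tested. CRELD2, an ER stress-induced folding factor, rose by a log2FC of 0.47 (interval 0.33 to 0.61), from 763 and 973 counts, and stayed at 0.37 after the fit. DNAJC1, named after its value was seen, also rose, by a log2FC of 0.34 (interval 0.17 to 0.50), and was still at 0.34 after the fit. UGGT2, a glucosyltransferase of the glycoprotein folding cycle, fell, at a log2FC of −0.28 (interval −0.48 to −0.094) from 521 and 394 counts, and was at −0.21 after the fit, short of 1.2-fold. CRELD2, DNAJC1 and UGGT2 were the 3 past 1.2-fold under the main setting, where 12.2% of all genes tested passed upwards and 12.4% downwards. With at least 1000 counts, 2.79% and 5.11% of all such genes did. The median of the list was 0.0068. CRELD2 and ERO1B were the 2 genes of this list with the ER stress element in a promoter window, out of 43 with a window. ERO1B, at a log2FC of 0.18 (interval −0.47 to 0.84), was past 1.2-fold at 0.28 after the fit, and FKBP2, at −0.081, was past it at −0.28 with the longest transcript in the fit. Regulators of the response did not go 1 way. DDIT3, the factor CHOP, had 536 and 561 counts and a log2FC of 0.18 (interval 0.0097 to 0.36). ATF4 had 16297 and 14121 counts and a log2FC of −0.089 (interval −0.12 to −0.057). ATF6 was at a log2FC of −0.048 (interval −0.11 to 0.015), or 0.099 after the fit, and ERN1, which encodes IRE1, at a log2FC of −0.19 (interval −0.43 to 0.040), from 340 and 274 counts. P4HB, the abundant protein disulfide isomerase, had 21123 and 20210 counts and a log2FC of 0.054 (interval 0.026 to 0.081), and was at −0.069 after the fit.

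Of 41 further genes listed as cytosolic chaperones and co-chaperones 36 were tested, with a median of −0.011. HSPA2, named after its value was seen, was the 1 gene at least 1.2-fold higher, at a log2FC of 0.36 (interval −0.30 to 1.07) from only 35 and 42 counts, and none was as much lower. ZFAND2A, a heat- and arsenite-inducible proteasome cofactor, was the highest of those with at least 100 counts, with 825 and 912 counts and a log2FC of 0.26 (interval 0.12 to 0.40), or 0.22 after the fit. PPID, an HSP90-binding cyclophilin, was the lowest with 1168 and 918 counts and a log2FC of −0.23 (interval −0.36 to −0.10), or −0.14 after the fit. The heat shock element stood in the windows of 3 genes of this list: HSPA6, CHORDC1 and SERPINH1. SERPINH1, though placed in this list, encodes a collagen chaperone of the ER. HSPA6, a heat-inducible HSP70, was also named after its value was seen. Its 1329 and 1382 counts gave a log2FC of 0.17 (interval 0.064 to 0.28), or 0.12 after the fit. Its TPM of 27 and 29 exceeded those of HSPA1A and HSPA1B in both libraries. CHORDC1 had 9522 and 7689 counts and a log2FC of −0.19 (interval −0.23 to −0.15), or −0.057 after the fit, and SERPINH1 had 27 and 24 counts and a log2FC of −0.049 (interval −0.91 to 0.80).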

How the data were processed

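The authors trimmed reads with Trimmomatic 0.38, mapped them with HISAT2 2.2.0, counted them with StringTie 2.1.3b and named edgeR 3.17, on hg38 per the submitters' notes. The deposited counts are whole numbers per gene, not scaled between libraries, from which digit-grouping commas were removed. FPKM and TPM were deposited as whole numbers, rounded by the authors, and count here as a score. StringTie divides reads of shared exons by an estimate.

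Counts were scaled by TMM (factors 1.0007 for control and 0.9993 for the exposed library), turned into log2 CPM with a prior count of 2, in Python 3.11.15 (scipy 1.17.1, numpy 2.4.6, statsmodels 0.14.6, pandas 2.3.3). No count model was fitted. The scaling, fold change and interval were tested on simulated counts that held counting error only. GC content and length were medians over protein-coding transcripts in GENCODE release 29, known for 91.3% of tested genes, with a robust fit to 10130 genes with at least 200 counts. Near-copies were aligned with Biopython 1.88. Promoters came from RefSeq (GRCh38.p14).

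Members and lists were chosen with earlier results of these data known. Named with full values were the members highest and lowest in TPM and in fold change of each subgroup, the CCT genes, 3 pairs and listed stress genes, and of each further list the highest and lowest fold change with at least 100 counts. PHB1 was found as PHB by its gene ID.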

Additional observations from a re-analysis of the deposited data

How the results depend on the processing

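Scaling by library size, median-of-ratios or upper quartile and prior counts of 0.5 and 5 left BAG3 as the 1 member past 1.2-fold, and moved the median of all genes tested by at most 0.012. On the deposited TPM scale (pseudocount 1), DNAJB9 and HSPA13 made 2 members lower and the members' median was −0.035, where the median of genes with at least 1000 counts also moved by −0.045. After the GC and length fit, HSPA5 joined BAG3, which made 2 members higher. With the longest transcript in that fit, chosen after seeing the data, BAG3 was again the 1 member. So it was with GC content alone in the fit, and HSPA5 joined it with length alone (median over transcripts). Fits on 1 property were also chosen after seeing the data. No member (0) was higher with at least 200 counts, a filter BAG3 misses, or at 2-fold. At 1.5-fold, and with the whole interval past 1.2-fold, BAG3 was. Ratios of levels in control depend on the transcript length used. HSPA8 to HSP90AB1 was 1.51 by TPM, and by counts per kilobase 3.32 with median and 1.45 with longest lengths. CCT7 to CCT6A was 2.99, 3.87 and 2.87, HSPE1 to HSPD1 1.01, 0.293 and 0.649, and CALR to HSPA5 2.97, 6.16 and 2.96. The cause was not tested. Adding pseudogene and readthrough rows kept all 11 tested members concerned within their intervals, but that of CCT8 then held 0. No paired analysis was possible because only 1 library exists per dish. The backgrounds at 1000 counts and at the depth of BAG3 and the counts of intervals off 0 were also chosen after seeing the data. At the depth of HSPA1A the interval holds both 0 and 1.2-fold, so neither can be told from the other.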
